A study of Mus musculus with 8 samples.

Results

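Cytosolic ribosomal proteins build the small (40S) and large (60S) subunits of the ribosome that translates nuclear-encoded mRNAs. Their genes were taken by name from the expression values of whole mouse pancreas. Included were symbols made of Rpl or Rps and a number, with an optional a, l, x or y suffix, and Rpsa, Rplp0, Rplp1 and Rplp2. Ribosomal S6 kinase genes, Rps19bp1 and names marked as pseudogenes (-ps) were left out. This gave 83 of the 48709 genes measured, spread over 19 chromosomes. Of the 83, 78 reached an RPKM (reads per kilobase of transcript, relative to the mapped reads of the library) of 0.5 in at least 2 libraries and were among the 11133 genes tested, 47 for the 60S and 31 for the 40S subunit. The remaining 5, Rps4l, Rpl6l, Rpl10l, Rpl39l and Rpl3l, were listed at or near 0 in every library.

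A ribosome holds 1 copy of nearly every ribosomal protein, and cells adjust production of the set to growth and nutrient state. Many of these mRNAs begin with an uninterrupted run of pyrimidines at the 5′ end, the 5′ terminal oligopyrimidine (TOP) sequence, through which mTORC1 and its target Larp1 control their translation. The exocrine pancreas makes secretory protein at one of the highest rates known for mammalian tissue, and its acinar cells are packed with ribosomes on rough endoplasmic reticulum.

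The libraries compared pancreata of WT mice and of cKO mice after saline or after induction of severe acute pancreatitis by fatty acid ethyl esters (FAEE-SAP). All mice were 8-week-old males, fasted before the procedure, and the pancreas was taken 24 hours after it. FAEE-SAP was induced with hourly i.p. palmitoleic acid (POA) and ethanol, with saline given just before and buprenorphine with the first injection. The cKO mice were Pfkfb3 fl/fl; Pdx1-Cre, in which Cre under the Pdx1 promoter removes exons 2 and 3 of Pfkfb3 from cells of the pancreatic lineage, acinar, ductal and endocrine, but not from infiltrating cells. The WT mice came from a commercial supplier and are not described as littermates, so genotype cannot be told apart from the source of the mice. Each of the 4 groups, WT saline, WT FAEE-SAP, cKO saline and cKO FAEE-SAP, had 2 libraries. The labels do not say that the 2 were separate animals, so a p-value measures only the spread between these libraries. With 2 against 2 libraries an exact permutation test cannot go below 0.33, and tests were therefore taken from limma fitted across all genes.

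Depth, worked out from the low RPKM values, was about 22800000 to 37600000 reads per library, and replicate libraries correlated at 0.947 to 0.959 across genes. Values were scaled by the median of ratios over genes, since acinar enzyme mRNAs filled a large and changing part of each library. The 12 acinar markers made up 42.4% to 43.8% of summed RPKM in the saline libraries of both genotypes, 40.4% and 40.7% in cKO FAEE-SAP and 34.6% and 35.1% in WT FAEE-SAP. Scaled RPKM of Pfkfb3 was 1.70 and 1.69 (WT) and 0.880 and 2.10 (cKO) after saline, and 1.85 and 3.21 (WT) and 1.74 and 2.82 (cKO) after FAEE-SAP. The genotypes overlapped at this gene, and a value per gene does not show a loss of exons 2 and 3. The labels give no batch or date.

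The 5′ ends of the mRNAs are shown because the pyrimidine start is the feature by which these mRNAs are recognised as a set. In the GENCODE vM21 transcripts (GRCm38), 22 of the 78 genes tested (28.2%) had a protein-coding transcript that began with C followed by at least 4 pyrimidines, against 620 of 10494 protein-coding genes tested (5.9%) and 5 of 77 mitochondrial ribosomal protein genes (6.5%). An annotated start can differ by a few bases from the one used in pancreas. The first 20 bases of 6 of them are given 5′ to 3′, chosen for the length of the run or because the gene is described below. Capitals mark the pyrimidine run.
Rps24 (chromosome 14, + strand): CTCTTTTCCTCCTCTCCagc
Rpl32 (chromosome 6, - strand): CTTCCTTCTTCCTCggcgct
Rps2 (chromosome 17, + strand): CTTCTTCTTCTTCgggagaa
Rpl10 (chromosome X, + strand): CTCTTTTCCTCTggcgcggt
Rpl30 (chromosome 15, - strand): CCTTTCTCgctccccggcca
Rps27 (chromosome 3, - strand): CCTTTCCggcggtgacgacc

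The promoters of these genes were searched for the core that ETS family factors read, CCGGAA or TTCCGG on the other strand, and for a YY1 site, AAGATGGC or GCCATCTT. The 2 sites can share the letters AA, as the first can end where the second begins. A RefSeq promoter (GRCm38.p6, 250 bases before to 50 after the start) was at hand for 61 of the 83 genes. The ETS core was in 33 of the 61 (54.1%), against 2725 of 8468 tested genes with a promoter (32.2%) and 4503 of all 27025 (16.7%). The YY1 site was in 5 of the 61 (8.2%), against 5.5% and 3.2%. The promoters of Rps27, which held both, and of Rps6, the S6 kinase substrate, are given from 120 bases before to 30 after the start, with the matched letters in capitals.
Rps27 (chr3:90213619-90213768, - strand): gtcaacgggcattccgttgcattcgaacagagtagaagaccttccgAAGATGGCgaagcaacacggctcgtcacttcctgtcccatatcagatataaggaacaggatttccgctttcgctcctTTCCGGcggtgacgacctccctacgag
Rps6 (chr4:86857338-86857487, - strand): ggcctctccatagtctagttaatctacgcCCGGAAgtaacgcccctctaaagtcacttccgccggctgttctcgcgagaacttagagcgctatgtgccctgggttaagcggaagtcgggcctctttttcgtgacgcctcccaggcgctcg

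Another sequence feature bears on how the values can be read. Processed copies of ribosomal protein mRNAs are scattered through mammalian genomes, and 79 of the 83 genes shared at least 1 stretch of 75 bases with a gene elsewhere, 703 gene and copy pairs in all. Most of these copies had little or no RPKM, and 8 of the 83 genes had one that reached 0.5 RPKM in at least 2 libraries. Rpl10-ps3, Rps12-ps3, Rpl27-ps3 and Rps27rt, copies of 4 of the genes tested, were at 14.3 RPKM or above in every library. The first 60 coding bases of 2 genes and their copies are shown to make plain that a read within such a stretch cannot be assigned to 1 locus. The longest identical run was 450 bases for Rps12 and 740 for Rpl10, and a read that reaches past it can differ. Capitals mark the start codon.
Rps12 (chromosome 10, 23785183 to 23787275): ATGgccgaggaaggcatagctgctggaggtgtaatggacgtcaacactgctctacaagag
Rps12-ps3 (chromosome 19, 59322290 to 59322783): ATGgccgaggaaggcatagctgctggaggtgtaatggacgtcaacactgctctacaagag
Rpl10 (chromosome X, 74270812 to 74273135): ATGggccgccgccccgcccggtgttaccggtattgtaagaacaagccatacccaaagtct
Rpl10-ps3 (chromosome 9, 50344201 to 50344968): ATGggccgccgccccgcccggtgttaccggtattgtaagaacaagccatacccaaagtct
All 396 coding bases of Rps12, all 642 of Rpl10 and all 252 of Rps27 recurred unchanged in the copy, in GRCm38. How the authors' software shared reads between such loci is not given in the sources used here, so values of these 4 genes are reported as uncertain and their sums are given below.

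In WT saline, group means of the 78 genes ranged from 10.3 to 812 scaled RPKM with a median of 129, and 48 of them were at 100 or above. Rplp1, an acidic protein of the 60S stalk that recruits elongation factors, was highest. Its scaled RPKM was 840 and 784 (WT) and 961 and 794 (cKO) after saline, and 462 and 533 (WT) and 621 and 648 (cKO) after FAEE-SAP. By the mean over all 8 libraries Rpl4 (367), Rpl17 (339), Rps14 (329) and Rps7 (318) followed Rplp1 (705). These 4 neighbours were closer to each other than their spread between libraries, and Rps7, for example, was at 515 and 338 in the cKO saline pair. Lowest were Rpl22 (27.9), Rpl10 (25.4), Rps19 (24.6), Rps15a (16.6) and Rpl27 (9.59). The place of Rpl10 and Rpl27 at this end is tied to their copies, since Rpl10 and Rpl10-ps3 together stood at 626 and 551 scaled RPKM in WT saline. RPKM is per length, and the transcript length the authors divided by is not given in the sources used here.

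After FAEE-SAP, ribosomal protein mRNAs were lower in WT pancreas relative to other genes. All 78 were lower than after saline, with a median log2 fold change of -0.64 (0.641-fold) against 0.01 over all 11133 genes tested, and with values as deposited, which are not scaled, all 78 were instead higher, with a median of 0.67 against 1.23 for all genes. The fold changes were close together, from -0.96 to -0.27, with an SD of 0.12 across the 78 genes against 0.77 across all genes. The median SE of a fold change was 0.15 for the 78 genes and 0.25 for all genes. The spread among the 78 was thus no larger than their error, and their order is uncertain. The part of the smaller error in this closeness and in the counts that follow was not tested. In 77 of the 78 the 2 FAEE-SAP libraries were both below the 2 saline libraries, which held for 29.4% of all genes tested. By limma, 45 of the 78 (57.7%) fell with an adjusted p under 0.05, against 5.97% of all genes tested, and 0 rose, against 4.52%. None of the 78 passed the further minimum of a 2-fold change, which 4.12% of all genes did in the lower and 3.36% in the higher direction. At an unadjusted p under 0.05, 75 were lower, against 15.1% of all genes. The count of 45 rested on each of the WT libraries, being 0 without WT saline replicate 1, 1 without WT saline replicate 2, 4 without WT FAEE-SAP replicate 1 and 0 without WT FAEE-SAP replicate 2, while the median stayed between -0.65 and -0.63. It was 18 and 17 without either cKO FAEE-SAP library. The 60S genes had a median of -0.65 with 29 of 47 passing the test, and the 40S genes -0.63 with 16 of 31.

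**Figure D1:**
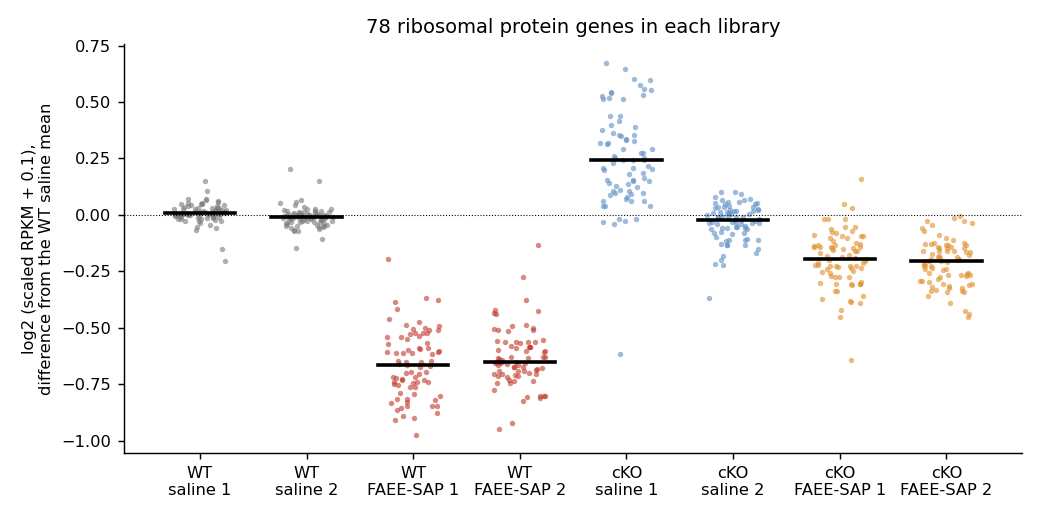
Level of each of the 78 ribosomal protein genes tested (points) in each of the 8 libraries, as log2(scaled RPKM + 0.1) minus the mean of the WT saline libraries. Black bars are medians, -0.66 and -0.65 in the WT FAEE-SAP libraries and -0.19 and -0.20 in cKO FAEE-SAP. The cKO saline libraries differ, at 0.24 and -0.02. With values as deposited the FAEE-SAP libraries lie higher than saline instead.

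Rpl3, which lines the peptidyl transferase centre of the 60S subunit, fell the most. It was at 125 and 115 scaled RPKM in WT saline and at 61.1 and 62.2 in WT FAEE-SAP (-0.96 on the log2 scale, SE 0.14, adjusted p = 0.00808 by limma). The cKO FAEE-SAP libraries, at 97.3 and 97.2, lay between, and those of cKO saline were at 129 and 118. Rpl3 is at chromosome 15, 80077791 to 80091868, in GRCm38. Rps26, a 40S protein near the mRNA exit channel, was at 347 and 341 in WT saline and 207 and 181 in WT FAEE-SAP (log2 fold change -0.83, SE 0.14, adjusted p = 0.0151 by limma).

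Rpl5 and Rpl11 bind 5S rRNA and, when ribosome assembly is disturbed, can bind the p53 regulator Mdm2. Rpl5 was at 105 and 98.4 scaled RPKM in WT saline and 56.5 and 58.1 in WT FAEE-SAP (log2 fold change -0.83, SE 0.15, adjusted p = 0.0183 by limma). Rpl11 was at 78.1 and 74.98 in WT saline and 45.8 and 46.9 in WT FAEE-SAP (log2 fold change -0.72, SE 0.15, adjusted p = 0.0286 by limma). Both estimates were below the median of the set, that of Rpl11 by less than its SE, so neither stands apart from the set. In each gene the cKO FAEE-SAP libraries, 82.2 and 80.3 for Rpl5 and 65.5 and 63.6 for Rpl11, lay above those of WT FAEE-SAP.

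Rps6, the 40S protein phosphorylated by S6 kinases, was at 237 and 240 scaled RPKM in WT saline and 152 and 158 in WT FAEE-SAP (log2 fold change -0.63, SE 0.13, adjusted p = 0.0309 by limma). Among the stalk proteins, Rplp1 fell by 0.71 on the log2 scale (SE 0.15, adjusted p = 0.032) and Rplp0 had -0.56 (SE 0.14, adjusted p = 0.0496), both by limma. Rplp2, the third of them, had -0.45 (SE 0.15, adjusted p = 0.0926) and did not pass the test, although its WT FAEE-SAP libraries, 38.5 and 35.3, were both below WT saline, 49.4 and 51.3. Rpsa, a 40S protein also known as a laminin receptor, was at 231 and 222 in WT saline and 154 and 169 in WT FAEE-SAP (log2 fold change -0.48, SE 0.13, adjusted p = 0.0588), just short of the threshold. The median log2 fold change was -0.64 for the 22 genes with an annotated pyrimidine start and -0.65 for the other 56. This split rests on the annotated first bases. It cannot tell mRNAs that have a TOP sequence in pancreas from mRNAs that lack it.

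Rps12, Rpl36a and Rpl22 had wide errors and did not pass the test. Rps12 had -0.83 (SE 0.22, adjusted p = 0.0539), Rpl36a -0.83 (SE 0.29, adjusted p = 0.108) and Rpl22 -0.65 (SE 0.27, adjusted p = 0.159) by limma. Rpl36a was at 60.2 and 55.6 scaled RPKM in WT saline and 30.8 and 34.5 in WT FAEE-SAP, without overlap, but at 92.4 and 49.6 in the cKO saline pair, and the error of the fit is shared by the 4 groups. The smallest fold changes were those of Rpl10 (-0.27, adjusted p = 0.468), Rpl27 (-0.32, adjusted p = 0.264), Rps27 (-0.37, adjusted p = 0.138) and Rps27l (-0.38, adjusted p = 0.379). The first 3 of these 4 are genes with an expressed near-identical copy, and Rps27l is a p53-responsive paralog of Rps27. Rpl10 was the 1 gene whose WT groups overlapped, at 34.1 and 27.7 after saline and 23.0 and 28.02 after FAEE-SAP.

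The 4 genes whose copy was at 14.3 RPKM or above were also counted together with it. The sum of Rpl10 and Rpl10-ps3 was 626 and 551 scaled RPKM in WT saline and 313 and 312 in WT FAEE-SAP (-0.91 on the log2 scale, SE 0.14, adjusted p = 0.0118 by limma). Such sums were chosen after the data were seen. Rpl10 itself held only 3.15% to 8.97% of the sum, with the highest shares, 7.37% and 8.97%, in the WT FAEE-SAP libraries. For Rps12 the gene held 35.0% and 47.2% of the sum in the WT saline libraries, while the sum, 434 and 426 scaled RPKM, hardly differed between them. In the cKO saline libraries it was the other way, with shares of 35.8% and 34.7% and sums of 544 and 390. The sum for Rps12 gave -0.70 on the log2 scale (SE 0.18, adjusted p = 0.0529) in place of -0.83. Rpl27 with its copy had -0.50 (SE 0.15, adjusted p = 0.0724), and Rps27 with Rps27rt had -0.36 (SE 0.18, adjusted p = 0.244). Rps27 thus kept a small fold change also with its copy.

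**Figure D2:**
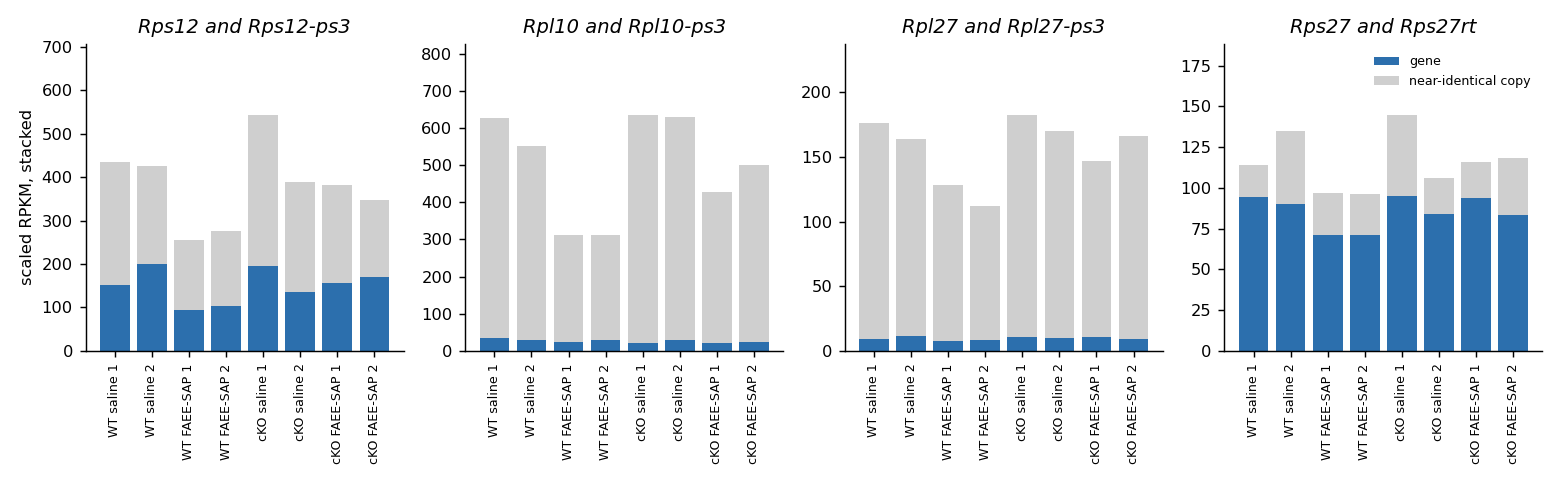
Scaled RPKM of 4 ribosomal protein genes (blue) and of a near-identical copy elsewhere in the genome (grey), stacked, in each of the 8 libraries. Each panel has its own axis, which starts at 0. In WT saline the blue share of Rps12 is 35.0% and 47.2% while the whole bar is at 434 and 426. In cKO saline the share is 35.8% and 34.7% while the whole bar is at 544 and 390.

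In cKO pancreas the same set was lower after FAEE-SAP by a smaller median, -0.33 (0.798-fold) against -0.02 over all genes, and with values as deposited the median was again positive, 0.33 against 0.57. All 78 had a negative log2 fold change, from -0.51 to values next to 0, and 66 did not overlap between the groups, against 21.9% of all genes tested. None passed an adjusted p under 0.05 by limma, a threshold that 0.00898% of all genes passed in the lower and 0.126% in the higher direction, and the smallest adjusted p was 0.32. At an unadjusted p under 0.05, 18 were lower, against 5.1% of all genes. The most negative were Rpl30 (-0.51, SE 0.24, adjusted p = 0.494), Rpl41 (-0.51, SE 0.17, adjusted p = 0.365) and Rpl32 (-0.50, SE 0.15, adjusted p = 0.32). Rpl32 was at 370 and 302 scaled RPKM in cKO saline and 236 and 236 in cKO FAEE-SAP. Rpl41, which encodes the shortest of the ribosomal proteins, was at 457 and 336 in cKO saline and 290 and 260 in cKO FAEE-SAP. In both genes cKO saline replicate 1 was the highest of the 8 libraries. The median of the set was -0.19 without that library and -0.44 without its partner. The 2 cKO saline libraries differed by a median of 0.27 on the log2 scale over the 78 genes, against 0.02 to 0.04 in size in the other 3 pairs. The summed scaled RPKM of 4 red blood cell markers was 340 in cKO saline replicate 1 and 67.3 in its partner, against 57.2 to 176 in the other 6 libraries, and its part in these values was not tested.

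**Figure D3:**
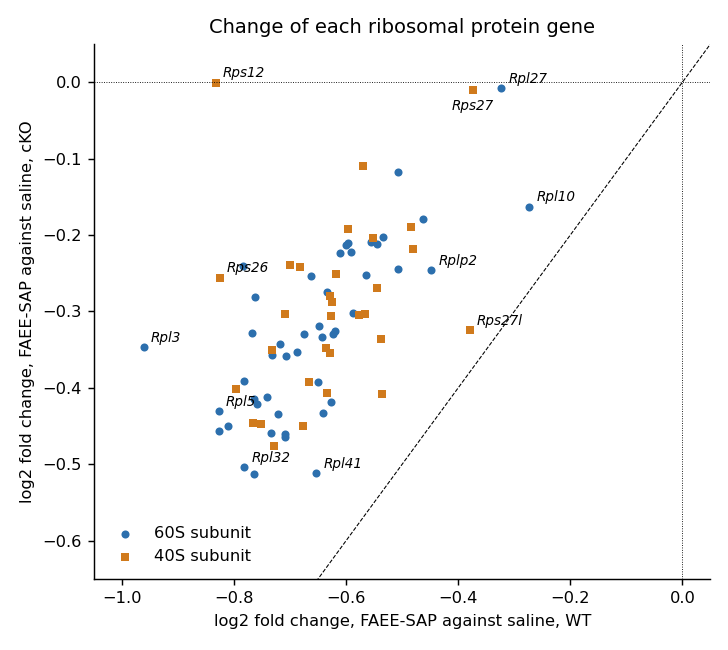
Log2 fold change of each of the 78 ribosomal protein genes after FAEE-SAP against saline, in WT (x axis) and in cKO (y axis), from scaled values. The groups share no library. All 78 points lie above the dashed line of equality, that is, less negative in cKO. Without cKO saline replicate 2, 15 of the 78 lie below it, and after quantile normalization 11 do. With values as deposited the fold changes are positive on both axes.

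Across the 78 genes the fold changes in WT and cKO correlated at Pearson r = 0.57, against 0.48 across all genes tested, where the genes share libraries and scaling. Fold change in WT had little relation to level (r = -0.24) or to exonic length (r = -0.14) across the 78 genes. Rps12 alone had -0.83 in WT and a value next to 0 in cKO, and with its copy -0.70 in WT and -0.34 in cKO, near the medians of the set.

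Between genotypes after saline no ribosomal protein gene passed the test. The median log2 fold change in cKO against WT was 0.11 with 67 of 78 higher, against 0.02 for all genes, and the median was -0.19 with values as deposited, -0.02 after quantile normalization and -0.02 without cKO saline replicate 1. By limma, 0 had an adjusted p under 0.05 and 0 an unadjusted p under 0.05, the latter reached by 1.46% of all genes in the higher and 1.17% in the lower direction. In 22 genes the cKO saline libraries were both above WT saline, against 15.6% of all genes, and in 0 both below, against 13.6%. The ends of the range were Rps7, a 40S protein, at 0.30 (SE 0.21, adjusted p = 1), and Rpl10 at -0.37 (SE 0.22, adjusted p = 1). Rps7 was at 340 and 339 scaled RPKM in WT saline and at 515 and 338 in cKO saline, so that the second cKO library equalled WT. Rpl10 with its copy turned to 0.11 (SE 0.14, adjusted p = 1).

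After FAEE-SAP the set was higher in cKO than in WT relative to other genes. The median log2 fold change was 0.46 (1.38-fold) against 0.01 for all genes, with 77 of 78 above 0, and with values as deposited it was -0.51 against -0.90. The cKO libraries were both above the WT libraries in those 77 genes, against 26.8% of all genes. By limma, 1 gene passed an adjusted p under 0.05, against 1.9% of all genes in that direction, and 0 passed it with a 2-fold change, against 1.66%. At an unadjusted p under 0.05, 57 were higher, against 12.7% of all genes. The 1 gene was Rpl7a, a 60S protein, whose scaled RPKM after FAEE-SAP was 73.7 and 71.3 (WT) and 113 and 122 (cKO) (0.69 on the log2 scale, SE 0.13, adjusted p = 0.0448 by limma). No gene of the set passed when any 1 of the 8 libraries was left out. Rps12 (0.73, SE 0.22, adjusted p = 0.112), Rpl3 (0.66, SE 0.14, adjusted p = 0.0527), Rps26 (0.60, SE 0.14, adjusted p = 0.0671) and Rpl36al (0.60, SE 0.17, adjusted p = 0.109) were next. Rps12 with its copy had 0.45 (SE 0.18, adjusted p = 0.192). Rpl10 was the exception, with both cKO libraries below WT, as in 25.1% of all genes, at -0.26 (SE 0.22, adjusted p = 0.537), and at 0.57 (SE 0.14, adjusted p = 0.0808) when summed with Rpl10-ps3.

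Whether the response to FAEE-SAP differed by genotype was tested with the interaction term. All 78 genes had a positive term, that is a less negative fold change in cKO, with a median of 0.33 against 0.02 for all genes, and with values as deposited 77 were negative with a median of -0.33 against -0.63. Without cKO saline replicate 2, 15 of the 78 were negative and the median was 0.20, and after quantile normalization 11 were negative. None passed an adjusted p under 0.05 by limma, which 0.0449% of all genes did in the higher and 0.0269% in the lower direction, and 6 had an unadjusted p under 0.05, against 6.17% of all genes. The largest terms were those of Rps12 (0.83, SE 0.31, adjusted p = 0.346), Rpl3 (0.61, SE 0.19, adjusted p = 0.284) and Rps26 (0.57, SE 0.20, adjusted p = 0.327). Rps12 with its copy had 0.35 (SE 0.26, adjusted p = 0.605), near the median of the set. A difference between genotypes in the response of a single ribosomal protein gene was therefore not detectable with these libraries.

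**Figure D4:**
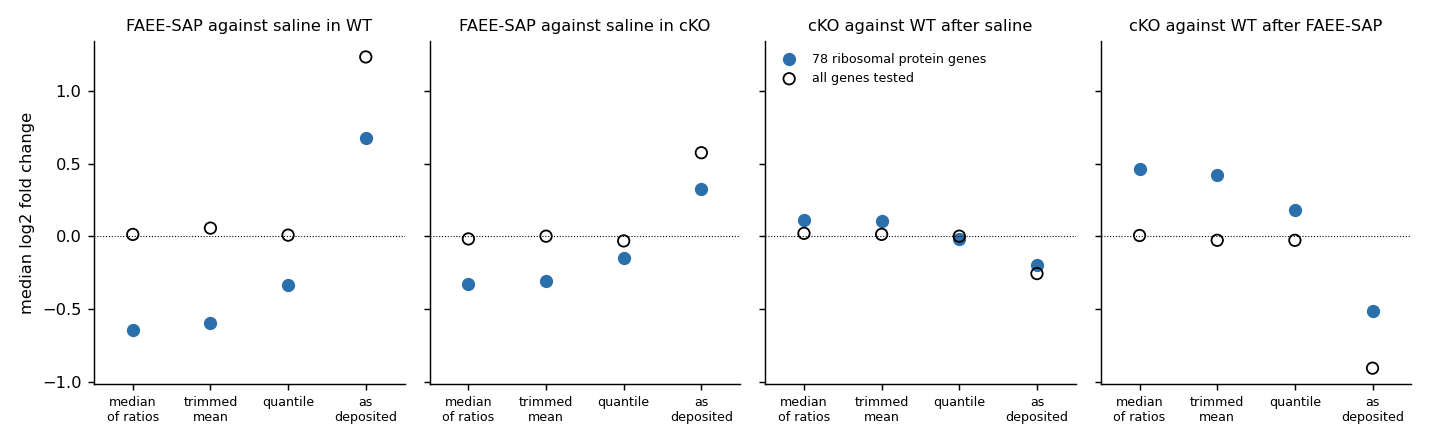
Median log2 fold change of the 78 ribosomal protein genes (filled) and of the 11133 genes tested (open) in 4 comparisons, under 4 ways of scaling. With values as deposited both medians shift, the median of the set changes sign, while the set stays below all genes after FAEE-SAP and above them in cKO against WT after FAEE-SAP. After quantile normalization the distance is smaller.

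The direction of these changes depended on what they were measured against. As deposited, the median of all genes was higher by 1.23 on the log2 scale after FAEE-SAP in WT and by 0.57 in cKO, and stood at -0.90 in cKO against WT after FAEE-SAP. Of all genes that passed with a 2-fold change in WT, 374 of 833 were higher after scaling and 7122 of 7202 with values as deposited. The 833 became 172 without WT saline replicate 1, 296 without WT saline replicate 2 and 187 without WT FAEE-SAP replicate 2. Relative to the median of all genes, the ribosomal protein genes were lower after FAEE-SAP in WT under each scaling, by 0.66 with the median of ratios, 0.65 with a trimmed mean of log ratios, 0.56 as deposited and 0.34 after quantile normalization. As a share of summed RPKM, which takes the acinar enzymes into the total, the 83 genes held 1.77% ± 0.20 (SD, n = 2) in WT saline, 3.17% ± 0.006 in WT FAEE-SAP, 1.56% ± 0.19 in cKO saline and 1.90% ± 0.13 in cKO FAEE-SAP. The share was thus higher after FAEE-SAP in both genotypes, without overlap between libraries, although the genes were lower relative to the median gene. RNA per cell and the number of cells were not measured. In bulk tissue, fewer cells of a type and less RNA per cell cannot be told apart.

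Markers of acinar cells and neutrophils moved with these changes, and the part of cell content in the result was not tested. The summed scaled RPKM of the 12 acinar markers was 284014 to 328756 in WT saline and 85266 to 89686 in WT FAEE-SAP, and 378881 to 385412 in cKO saline against 221707 to 242214 in cKO FAEE-SAP. All 12 passed by limma as lower in WT at 2-fold or more, against 4.12% of all genes tested. In the higher direction 3.36% of all genes did so. The median log2 fold change of the 12 was -1.94, led by Clps (colipase, -3.85, adjusted p = 7.05e-05), Bhlha15 (the acinar transcription factor Mist1, -3.46, adjusted p = 0.00577) and Cela2a (an elastase, -2.31, adjusted p = 0.0005). The median in cKO was -0.90, where 0 passed. Neutrophil markers, 6 genes of which 5 were tested, summed to 1.32 and 2.22 (WT) and 3.65 and 1.21 (cKO) after saline, and to 58.6 and 53.1 (WT) and 19.7 and 12.2 (cKO) after FAEE-SAP. S100a8 (5.79, adjusted p = 0.00106) and S100a9 (5.12, adjusted p = 0.00157) were among the 5 that rose in WT, of which 2 or 3 passed without any 1 of the WT libraries. Of 6 macrophage markers 1 passed, Cd14, a receptor for bacterial lipopolysaccharide, which rose in WT (3.38, adjusted p = 0.00104) and was lower in cKO than in WT after FAEE-SAP (-2.34, adjusted p = 0.00933), the latter not passing without WT FAEE-SAP replicate 2 or either cKO FAEE-SAP library. The sum of the 6 was 52.0 to 85.7 scaled RPKM over the 8 libraries. Of 11 lymphocyte and lymph node markers 0 passed in any comparison, and their sum was 11.8 to 35.1 over the 8 libraries. In WT after FAEE-SAP the scaled medians were -0.39 for 5 ductal, -0.26 for 4 endothelial, 0.22 for 5 fibroblast and 0.97 for 3 adipocyte markers. Among these, 1 ductal marker passed, as lower. The acinar markers were the most abundant of the marker lists in every library, as the label of the tissue says.

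Of the ribosomal proteins outside the name rule, 7 were tested. All 7 were lower after FAEE-SAP in WT, with a median of -0.56, and all 7 were higher with values as deposited, with a median of 0.75. Rps3a1 fell from 378 and 381 to 231 and 260 scaled RPKM (log2 fold change -0.63, adjusted p = 0.0405 by limma), and Rack1, a 40S scaffold for signalling proteins, from 64.0 and 59.7 to 36.4 and 39.1 (-0.71, adjusted p = 0.0242). Fau, which encodes a 40S protein as a fusion, had -0.34 (adjusted p = 0.22 by limma). Rpl22l1, the paralog of Rpl22, went from 55.2 and 43.3 to 21.8 and 23.1 (-1.12, SE 0.34, adjusted p = 0.0767), and Rpl7l1 had -0.39 (adjusted p = 0.218). None of the 7 passed in the other comparisons.

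Other genes of translation are given by role, with log2 fold changes in WT after FAEE-SAP against saline. The counts that follow are of genes with an adjusted p under 0.05 by limma, which 5.97% of all genes tested reached in the lower and 4.52% in the higher direction, and in lists of this size a count of 1 to 3 is near or below those shares for ribosome biogenesis and mitochondrial ribosomal proteins. Of a list of elongation and release factors and genes grouped with them, 6 of 14 were lower by limma at any fold and 0 higher, and the list had a median of -0.41. The 6 were Eef1a1 (-0.70, adjusted p = 0.0172), which carries aminoacyl-tRNA, Eef2 (-0.63, adjusted p = 0.0417), which drives translocation, Eef1b2 and Eef1g, subunits of the exchange factor of Eef1a1, and Naca and Tpt1, which are not elongation or release factors. Naca binds nascent chains. Eef1a1 and Eef2 are themselves known TOP mRNAs. Among 33 initiation factor genes 5 fell and 2 rose, with a median of -0.12. The 5 were subunits of eIF3, Eif3e, Eif3h, Eif3i, Eif3k and Eif3m, with log2 fold changes from -0.79 to -0.66, while Eif6 (0.93, adjusted p = 0.021), which keeps free 60S subunits apart, and the helicase Eif4a1 (0.78, adjusted p = 0.0447) rose. Ribosome biogenesis genes had a median of 0.11 in WT, with 1 of 49 rising, Gar1 of the box H/ACA particle (1.04, adjusted p = 0.0328), and 1 falling, Npm1 (-0.74). Mitochondrial ribosomal proteins, 77 genes that serve the other ribosome of the cell, had a median of -0.01, with 3 falling and 0 rising, among them Mrpl42 (-1.27, adjusted p = 0.0185). Of 20 regulators around mTORC1, S6 kinase and TOP mRNAs, 3 fell in WT and 0 rose: Larp1 (-0.80, adjusted p = 0.023), Rps6kb1 (-0.80, adjusted p = 0.0429), which encodes S6 kinase 1, and Deptor (-0.75, adjusted p = 0.0356), an mTOR inhibitor. Of 12 genes of ribosome quality control and stress, Hbs1l rose (1.29, adjusted p = 0.0401). These calls depended on single libraries. Without WT saline replicate 1, WT saline replicate 2 or WT FAEE-SAP replicate 2, 0 genes passed in the lists of elongation, initiation, biogenesis, mTORC1 and quality control genes. With values as deposited, the medians of these lists were all positive, 0.90 for the list with elongation and release factors, 1.20 for initiation, 1.40 for ribosome biogenesis, 1.24 for mitochondrial ribosomal proteins and 1.19 for the mTORC1 list, beside 1.23 for all genes, while all 12 acinar markers were lower (median -0.62). After quantile normalization 9 of the 12 acinar markers were lower and 3 higher in WT (median -0.25), and in cKO 8 were lower and 4 higher with values as deposited.

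**Figure D5:**
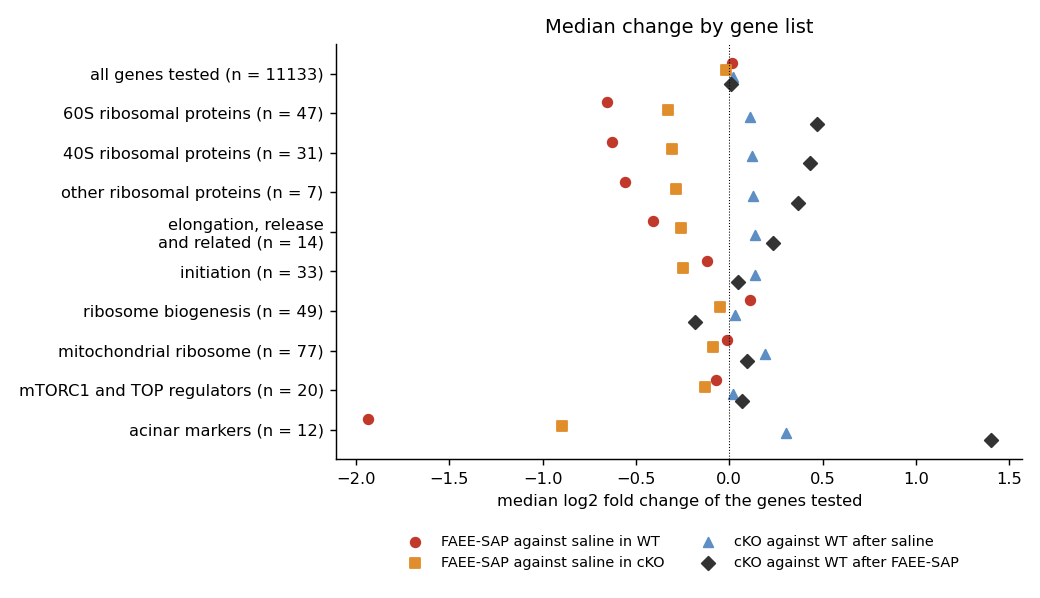
Median log2 fold change (x axis, scaled values) of the genes tested in each list, for 4 comparisons. In WT after FAEE-SAP (red circles) the 60S and 40S genes are at -0.65 and -0.63, the list of elongation and release factors and related genes at -0.41, initiation factors at -0.12, ribosome biogenesis at 0.11, mitochondrial ribosomal proteins at -0.01 and acinar markers at -1.94. As deposited, the median of all genes in this comparison is 1.23 rather than 0.01.

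The 5 genes not tested were not detected at a usable level. GENCODE annotates 2 of them, Rpl6l and Rps4l, as processed pseudogenes although their names are not marked so, and Rpl6l shares stretches with Rpl6, so its value depends on how reads were shared. Rps4l, a copy of the X-linked Rps4x, was listed at 0 in all 8 libraries, and Rpl3l, a muscle paralog, Rpl10l and Rpl39l, both known from testis, and Rpl6l did not exceed 0.164 scaled RPKM in any. Their counterparts were all detected, with Rps4x at 230 and 213 scaled RPKM in WT saline and Rpl39 at 53.3 and 46.1. Rpl39 and Rpl10 were in the lower part of the set. Rpl36al, an autosomal counterpart of Rpl36a, was at 46.9 and 50.7 in WT saline and 29.2 and 27.5 in WT FAEE-SAP. Rps27l, at 65.2 and 65.1 in WT saline, was at 56.9 and 44.1 after FAEE-SAP in WT, with 59.3 and 57.2 in the corresponding cKO libraries.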

How the data were processed

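Pancreas RNA was prepared with a directional NEBNext Ultra II kit and sequenced as paired ends on a NovaSeq instrument. The authors filtered reads with fastp, mapped them to Ensembl GRCm38.p6 with CLC Genomics Workbench and deposited RPKM per gene for each library. How reads with several matches were counted is not given in the sources used here, and the deposited values hold no counts.

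RPKM was divided by a median-of-ratios factor per library, taken over tested genes above 0 in all 8 libraries. Genes with RPKM of at least 0.5 in at least 2 libraries were tested on log2(scaled RPKM + 0.1) with limma 3.58.1 (R 4.3.3), all 8 libraries in 1 fit with a trend, and p-values were adjusted by Benjamini-Hochberg over all genes tested. Fold changes are on that log2 scale, which understates changes of low genes. A gene passed at an adjusted p under 0.05, and passing with at least 2-fold was counted separately. The procedure was tested on simulated data with independent noise of a common size, in which only a small part of the genes changed. Such data hold no shift across most genes, so they cannot show which scaling is right here.

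Depth came from low values being whole multiples of 1 read, with the exonic lengths of GENCODE vM21 assumed. Of values under 20 reads, 84.5% to 85.8% were whole within 0.1. The reads implied for matched genes came to 100.3% to 105.7% of the depth, which is above it, so the depth is approximate. Positions, transcripts and shared stretches of 75 bases came from GENCODE vM21, in which 95.1% of gene names matched. Promoters came from RefSeq. Genes named were taken from the 5 at either end of each comparison, members with known roles, paralogs, the 5 highest and lowest, and up to 3 called genes per direction of related lists, though not all of these are printed. Related lists also gave genes with an adjusted p under 0.05 at any fold, in some lists more than 3 per direction. Members and lists were chosen with earlier results of these data known. Alternatives covered scaling, filter, pseudocount, trend, the libraries in the fit, a replicate block and leaving out each library. Figures were drawn with matplotlib.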

Additional observations from a re-analysis of the deposited data

How the results depend on the processing

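Scaling moved the medians most, and leaving out a WT library moved the count in WT most. With no scaling (values as deposited) the medians over the 78 genes were 0.67 for FAEE-SAP in WT, 0.33 in cKO, -0.19 for cKO against WT after saline, -0.51 after FAEE-SAP and -0.33 for the interaction, each of the opposite sign to the scaled value. The numbers with an adjusted p under 0.05 were then 73, 1 and 58 for FAEE-SAP in WT, in cKO and cKO against WT after FAEE-SAP (of all 11133 genes, 8881, 1342 and 6939), with 1 of them at 2-fold in WT and 1 in cKO against WT. Single genes turned too. In WT the deposited values gave Rpl3 0.36, Rps12 0.48, Rpl5 0.49, Rpl36a 0.49, Rps26 0.49, Rpl10 1.04, Rpl27 0.98, Rps27 0.94, Rps27l 0.94, Rplp0 0.76, Rplp1 0.61, Rplp2 0.87, Rpsa 0.83, Rps6 0.69, Rpl11 0.59 and Rpl22 0.66. In cKO they gave Rpl30 0.14, Rpl41 0.14 and Rpl32 0.15. For cKO against WT they gave Rps7 -0.0073 after saline, and Rps12 -0.24, Rpl7a -0.28, Rpl3 -0.31, Rps26 -0.37 and Rpl36al -0.37 after FAEE-SAP. The interaction of Rpl3 was -0.0503 and that of Rps26 -0.0949. After quantile normalization the medians were -0.33 in WT, -0.15 in cKO, -0.0151 after saline, 0.18 after FAEE-SAP and 0.21 for the interaction, with 10 and 0 genes passing in WT and in cKO against WT after FAEE-SAP. Which scaling is nearer to the RNA content of the cells was not tested.

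In place of 45 genes, 12 passed in WT with no filter, 12 without the trend and 12 with the replicate block, and 75 of the 78 had an unadjusted p under 0.05. With an RPKM minimum of 2, 1 gene passed at 2-fold. For cKO against WT after FAEE-SAP, 3 passed with that minimum. There 0 passed with no filter, a pseudocount of 1, no trend, the replicate block or the 4 libraries alone, and 57 had an unadjusted p under 0.05. Unadjusted counts were 18 in cKO and 6 for the interaction.

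The replicate block brought the count in WT from 45 to 12 and that of cKO against WT after FAEE-SAP from 1 to 0 (Rpl7a, adjusted p = 0.0871), and changed no other of these counts. Among the genes named it ended the calls of Rplp0, Rplp1, Rps6 and Rpl11 in WT (adjusted p 0.0783, 0.0618, 0.0632 and 0.0509 by limma). The labels do not say whether libraries with the same number, 1 or 2, belong together across groups. Deviations of same-numbered libraries correlated between -0.52 and 0.40 across genes over the 6 pairs of groups.

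Leaving out 1 library at a time gave 0 to 59 genes passing and 0 to 1 at 2-fold in WT, and 0 in the other comparisons. Medians ranged from -0.65 to -0.63 in WT, from -0.44 to -0.19 in cKO, from -0.0204 to 0.24 after saline, from 0.43 to 0.48 after FAEE-SAP and from 0.20 to 0.44 for the interaction. The median after saline and Rps7 turned sign without cKO saline replicate 1, where Rps7 ranged from -0.0041 to 0.60. Adding the copies, chosen after seeing the data, turned Rpl10 to 0.11 after saline and 0.57 after FAEE-SAP, and made the share of summed RPKM 3.405% in WT FAEE-SAP and 2.05% in cKO FAEE-SAP. The other alternatives kept the sign of each result. Over the genes named, 461 of the alternative values kept direction and side of the threshold, 65 no longer passed, 11 newly passed and 30 turned sign. The interaction could not be fitted on 4 libraries. Where a count or value changed with the filter, the trend or a left-out library, the cause was not tested. With 2 libraries a group, the error rests on spread pooled over genes.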

Other observations

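Genes of the endocrine islets, which share the Cre lineage with acinar cells, were also read. By limma, 3 of 6 islet markers passed as higher in cKO than in WT after FAEE-SAP, against 1.9% of all genes tested. They were Sst (somatostatin, 1.80 on the log2 scale, adjusted p = 0.019), Gcg (glucagon, 1.69, adjusted p = 0.00708) and Ins2 (insulin, 1.23, adjusted p = 0.0349). Of the 6, 5 were higher and 1 was lower, at -0.37. Between genotypes after saline 4 were higher in cKO and 2 lower, down to -1.91, and 0 passed. The count of 3 became 0 without WT FAEE-SAP replicate 2 or cKO FAEE-SAP replicate 2, 1 without either of their partners and 2 without either WT saline library. With values as deposited, 3 of the 6 were higher and 3 lower, with a median of 0.12 in place of 1.09. In WT, Sst fell after FAEE-SAP (-1.47, adjusted p = 0.0149), and so did Gcg (-0.99, adjusted p = 0.0156), although 5 of the 6 were higher with values as deposited, and the 2 calls became 0 without WT saline replicate 1 or WT FAEE-SAP replicate 2 and 1 without WT saline replicate 2. Of all genes tested, 5.97% fell in WT with an adjusted p under 0.05. In cKO 0 of the 6 passed. The interaction of genotype and treatment did not pass for these genes, with adjusted p of 0.197 for Sst, 0.143 for Gcg and 0.267 for Ins2. The summed scaled RPKM of the 6 markers was 304 and 256 (WT) and 337 and 277 (cKO) after saline, and 163 and 223 (WT) and 381 and 410 (cKO) after FAEE-SAP. How much islet tissue each library held was not measured.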
